A study of Rattus norvegicus with 5 samples.

Results

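The voltage-gated and related ion channel genes of an Affymetrix rat array were described across 3 populations of hypothalamic cells. They were taken by gene name, as the probe sets annotated to a single gene of the potassium channel (*Kcn*), sodium channel (*Scn*), calcium channel (*Cacn*), hyperpolarization-activated channel (*Hcn*) or chloride channel (*Clcn*) families. This gave 83 genes of the 4736 that the array read as single genes, from 131 probe sets. No *Hcn* gene was among them. Of the 83 genes, 49 had 1 probe set. The other 34 had several and were read from the one of highest average signal across all 5 arrays, and the 48 probe sets not chosen were kept for comparison.

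Each population came from primary cultures of Wistar rat hypothalamus at embryonic day 17, kept for 3 days in culture. GFP+ cells had been transfected with a plasmid in which a minimal *Trh* promoter drives green fluorescent protein and were then sorted for fluorescence (2 arrays, RNA pooled from 6 experiments). GFP+/- cells had received the same plasmid and had run through the cell sorter without selection, so that they mix fluorescent and dark cells (2 arrays, RNA pooled from 3 experiments). NT cells were not transfected (1 array, RNA pooled from 3 experiments). The GFP+ label thus rests on activity of a promoter fragment in transfected cells. The paper also reports that most sorted cells were fluorescent on a second pass through the sorter. By reverse transcription PCR it reports raised *Trh* and *tau* and diminished *gfap* in GFP+ cells. Transfection and sorting cannot be told apart in the comparisons with NT cells. The sample labels call the 2 arrays of a population biological replicates, whereas the methods describe aliquots of one pooled RNA, so p-values measure only the spread between arrays.

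Voltage-gated channels open or close with the membrane potential. Sodium channels carry the upstroke of the action potential, potassium channels repolarize the membrane and set its resting level, and calcium channels couple firing to transmitter and hormone release, which in neurons that make thyrotropin-releasing hormone (TRH) is peptide release. The pore is formed by an alpha subunit, and auxiliary subunits change its gating or its delivery to the membrane. Chloride channels and exchangers of the *Clcn* family act at the cell surface or in endosomes and lysosomes.

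The measurement was a MAS 5.0 signal per probe set, a linear intensity that each array carries in arbitrary units after scaling to one common trimmed mean (501 on every array). Probes differ in affinity, so that the signal of a probe set gives no level of its gene relative to another gene, and brightness was used only to choose a probe set per gene and to tell bright from dim ones. Of the 83 channel genes, 22 (26.5%) lay in the 41% of probe sets with the highest mean signal (above 175), against 49.3% of all genes. The other 61 were dimmer, and 17 had a mean signal under 20. The median signal of the 83 genes was 66.4 and 84.0 on the GFP+ arrays, 65.8 and 64.4 on the GFP+/- arrays and 85.5 on the NT array. In 19 genes the probe set is of the kind whose probes can match several transcripts, which includes *Cacna1a*, *Kcnd3* and *Kcnc1*.

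The populations also differed in other ways. The summed signal of 16 neuronal marker genes was 29976 to 35517 in GFP+, 23444 to 24879 in GFP+/- and 50315 in NT cells. That of 17 fibroblast and matrix genes was 21561 to 30439.9 in GFP+, 56767.5 to 57839.5 in GFP+/- and 26628 in NT cells, and that of 11 endothelial, mural and smooth muscle genes was 3017 to 5169 in GFP+, 12966 to 14493 in GFP+/- and 2357 in NT cells. No marker was at 0 on any array. GFP+/- cells were thus lowest in neuronal and highest in fibroblast and vascular markers. The ratio of 3′ to 5′ *Gapdh* signal was 14.6 and 17.6 on GFP+, 12.7 and 14.2 on GFP+/- and 5.45 on NT arrays. The part of these differences in the results on channel genes was not tested, and in such bulk samples fewer cells of a type and less RNA per cell cannot be told apart. *Trh* itself had signals of 115 and 141 on GFP+, 109 and 106 on GFP+/- and 96.6 on NT arrays (limma, log2 difference 0.24 between GFP+ and GFP+/- cells, adjusted p = 0.761).

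Over all channel genes, sorted cells were compared with unsorted transfected cells first. Averaged signals differed by more than 2-fold in 14 genes: 13 of 83 (15.7%) were higher in GFP+ cells, where 6.97% of all genes were, and 1 (1.2%) was lower, where 3.72% of all genes were. The single gene lower by this measure was the calcium-activated potassium channel gene *Kcnn3*. Of the 13 higher genes, 12 lay below the brightest 41% of probe sets, where signals of one population varied most, and the share among dim channel genes was 19.7%, against 11.4% of all dim genes. Genes close to the limit were *Kcna1* (2.00-fold), *Kcnj3* (2.01-fold) and *Kcnt1* (2.02-fold) just inside it and *Kcne1* and *Clcn5* (1.99-fold each) just outside. *Kcnj3* had 4.26 and 57.6 on GFP+, 16.5 and 14.3 on GFP+/- and 25.6 on NT arrays, so that 1 GFP+ array set its ratio of averages and its log2 difference was 0.03.

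This count depended on how the arrays were scaled. With quantile normalization 6 channel genes (7.23%) were more than 2-fold higher and 5 (6.02%) lower, beside 5.00% and 5.57% of all genes. With arrays scaled to equal medians 6 (7.23%) were higher and 4 (4.82%) lower, beside 5.32% and 5.43%. The same 2 changes moved the median log2 difference of all genes to -0.012 and -0.050, against 0.11 as deposited. With 16 added to every signal, which damps dim probe sets, 2 (2.41%) were higher and 0 lower, beside 3.32% and 1.82% of all genes. Under these settings the shares of channel genes lay near those of all genes. The median log2 difference of the 83 genes was 0.18 as deposited, 0.022 after quantile normalization and 0.027 after equal medians.

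With limma, the test of each log2 difference against the spread between arrays, 0 of 83 channel genes and 0.0% of all genes passed an adjusted p of 0.05 between GFP+ and GFP+/- cells. At an unadjusted p under 0.05, 10 channel genes were higher and 1 lower, beside 412 and 240 of all genes, and the lowest adjusted p of a channel gene was 0.160. Among the brightest 41%, adjusted over those probe sets alone, 1 of 22 channel genes (4.55%) rose, where 1.8% of all bright genes did. It was the calcium channel gene *Cacnb2*. Of the 22, 0 fell, where 1.63% of all bright genes did. *Cacnb2* entered the bright set through GFP+ and NT cells (mean signal 280.1 and 263), not GFP+/- cells (117). Its call thus depends on that choice of probe sets. Both GFP+ arrays lay above both GFP+/- arrays in 28 channel genes (33.7%), against 30.2% of all genes, and below them in 7 (8.43%), against 16.3%.

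The comparisons with untransfected cells share the single NT array, which was assumed to vary like the other arrays. Against NT cells, averaged signals of GFP+ cells were more than 2-fold higher in 10 channel genes (13.6% of all genes) and lower in 7 (11.1% of all genes). With limma, 2 rose (*Scn3a* and *Cacna1h*; 4.31% of all genes) and 1 fell (*Scn2a*; 4.1% of all genes). Among the brightest 41%, 3 of 22 rose (16.3% of all bright genes), the same 2 and the potassium channel gene *Kcnd3*, and 1 fell, *Scn2a* (14.2% of all bright genes). Each of these shares of channel genes lay below that of all genes. *Cacna1h* entered the bright set through the transfected populations, with a mean signal of 177 over all arrays and 56.4 on the NT array. Its count among bright genes in both comparisons with NT cells thus depends on the limit of 175.

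GFP+/- cells had 7 channel genes more than 2-fold higher than NT cells (8.43%; 11.7% of all genes) and 12 lower (14.5%; 13.8% of all genes). With limma, *Scn3a* and *Cacna1h* rose here too (4.54% of all genes), and *Scn2a* and *Scn1a* fell (5.32% of all genes). Among the brightest 41%, 7 of 22 passed in either direction (31.8%; 31.2% of all bright genes). The 2 that rose were *Scn3a* and *Cacna1h*. The 5 that fell were *Scn2a*, *Cacna1b*, *Cacna1c*, *Cacna2d1* and *Cacnb2*, of which the last 4 encode calcium channel subunits. *Cacnb2* was in the bright set through its signal in GFP+ and NT cells, so its count here depends on the limit as well. The other probe set of *Cacna1b* passed in the opposite direction. The median log2 difference of the 83 genes was -0.033 for GFP+ and -0.15 for GFP+/- cells over NT cells, beside 0.086 and -0.045 for all genes.

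**Figure D1:**
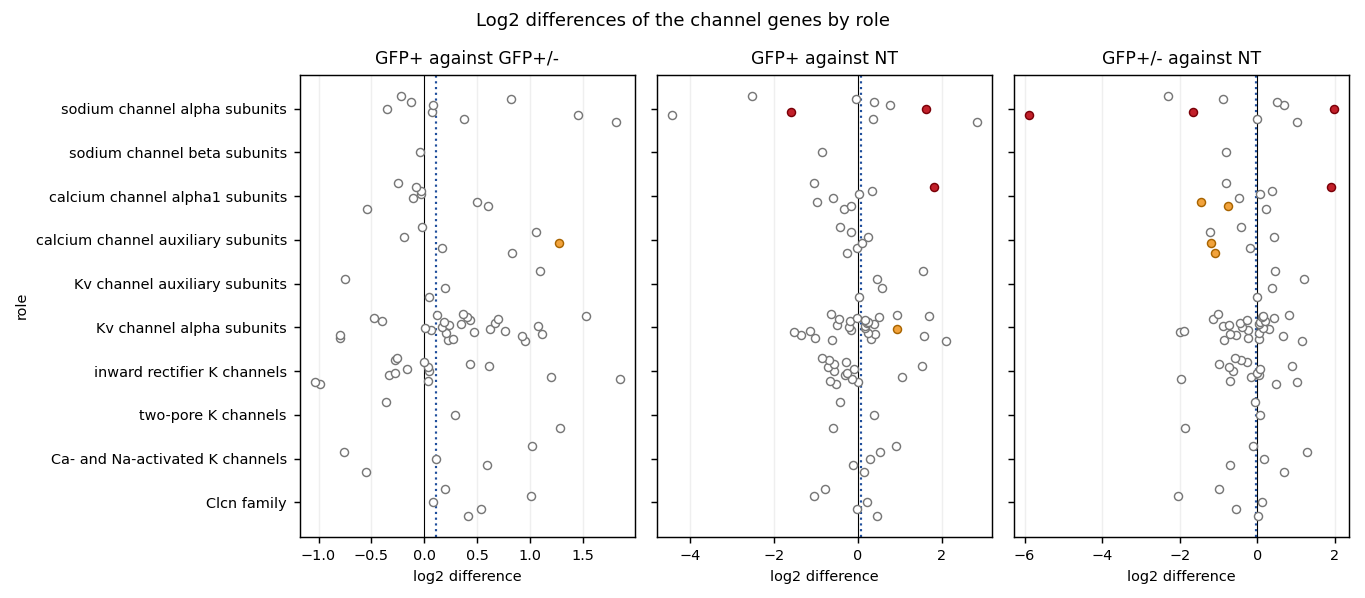
Log2 difference of each of the 83 channel genes, grouped by role (rows), in the 3 comparisons (panels), with 1 point per gene. Red points are past an adjusted p of 0.05 with limma across the array and orange points only among the brightest 41%. Dotted lines mark the median of all genes. In GFP+ against GFP+/- cells the only coloured point is *Cacnb2* at 1.27, which was in the bright set through GFP+ and NT cells.

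Among the 9 sodium channel alpha subunits, 2 neighbouring genes, *Scn3a* and *Scn2a*, passed over all probe sets in both comparisons with NT cells, in opposite directions. A further gene, *Scn1a*, passed as lower in GFP+/- cells only and is described below. *Scn3a* encodes the alpha subunit known in rodents to be prominent in the fetal brain, and *Scn2a* encodes the one that spreads along axons and is known to gain ground with maturation. Both transfected populations had more *Scn3a* and less *Scn2a* signal than NT cells, while sorted and unsorted cells did not differ past the test in either.

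The *Scn3a* signal was 2642 and 1928 on GFP+, 3038 and 2751 on GFP+/- and 732 on NT arrays. All 4 arrays of transfected cells lay above the NT array, and both GFP+ arrays lay below both GFP+/- arrays. The log2 difference was 1.62 for GFP+ (SE 0.25, adjusted p = 0.0231) and 1.98 for GFP+/- cells (SE 0.25, adjusted p = 0.0152) over NT cells, and -0.36 for GFP+ over GFP+/- cells (SE 0.21, adjusted p = 0.517). The other *Scn3a* probe set had 335 and 291 on GFP+, 428 and 290.1 on GFP+/- and 149 on NT arrays. It kept the order of transfected above NT cells. With limma it passed only among the brightest 41% (adjusted p = 0.0300 for GFP+ and 0.0147 for GFP+/- cells). Over all probe sets it did not (adjusted p = 0.108 for GFP+ and 0.0736 for GFP+/- cells). The name of the chosen *Scn3a* probe set ends in _g_at. Without probe sequences it could not be checked whether these probe sets share probes, so they may not be independent readings.

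*Scn2a* had 255 and 225 on GFP+, 185 and 283 on GFP+/- and 724 on NT arrays. Here the NT array lay above all 4 others, and the 2 transfected populations overlapped. The log2 difference was -1.59 for GFP+ (SE 0.33, adjusted p = 0.0452) and -1.66 for GFP+/- cells (SE 0.33, adjusted p = 0.0377) over NT cells. Between GFP+ and GFP+/- cells it was 0.068 (SE 0.27, adjusted p = 0.942), with a sign that turned under quantile normalization and under equal medians (-0.074 and -0.089). The paper lists this gene, as *Scn2a1*, among transcripts enriched more than 2-fold in GFP+ cells. With this probe set the ratio of averaged signals did not pass that limit.

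The calls of *Scn3a* and *Scn2a* against NT cells held under both other scalings of the arrays and were lost without the intensity trend in limma's variance. The adjusted p was then 0.111 for *Scn3a* and 0.131 for *Scn2a* in GFP+ cells, and 0.0872 for *Scn3a* and 0.120 for *Scn2a* in GFP+/- cells. Without GFP+ replicate 1 or 2, or without GFP+/- replicate 1 or 2, the fit has 1 residual degree of freedom in place of 2, and the adjusted p was then 0.0632 to 0.0914 for *Scn3a* and 0.0854 to 0.141 for *Scn2a* in GFP+ over NT cells, and 0.0420 to 0.126 for *Scn3a* and 0.0844 to 0.152 for *Scn2a* in GFP+/- over NT cells.

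*Scn3a* and *Scn2a* are neighbours on rat chromosome 3 on opposite strands. In the RefSeq annotation of assembly GRCr8, 5 of the 9 alpha subunit genes on the array (*Scn3a*, *Scn2a*, *Scn1a*, *Scn9a* and *Scn7a*) lie on this chromosome within a run of 9 protein-coding genes. The promoter windows of the *Scn3a* and *Scn2a* pair, 250 bases before to 50 after the RefSeq start (GRCr8), are shown because these genes differed in opposite directions from NT cells. They are written 5′ to 3′ on the strand of the gene, with CpG dinucleotides in capitals. The *Scn3a* window lies at chr3:70666149-70666448 on the minus strand and the *Scn2a* window at chr3:70710706-70711005 on the plus strand.
*Scn3a*: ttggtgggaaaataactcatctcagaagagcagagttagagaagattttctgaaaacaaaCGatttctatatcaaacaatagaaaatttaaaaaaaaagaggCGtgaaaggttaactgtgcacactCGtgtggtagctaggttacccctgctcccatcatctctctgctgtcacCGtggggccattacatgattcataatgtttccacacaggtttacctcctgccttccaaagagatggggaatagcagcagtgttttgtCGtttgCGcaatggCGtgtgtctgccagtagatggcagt
*Scn2a*: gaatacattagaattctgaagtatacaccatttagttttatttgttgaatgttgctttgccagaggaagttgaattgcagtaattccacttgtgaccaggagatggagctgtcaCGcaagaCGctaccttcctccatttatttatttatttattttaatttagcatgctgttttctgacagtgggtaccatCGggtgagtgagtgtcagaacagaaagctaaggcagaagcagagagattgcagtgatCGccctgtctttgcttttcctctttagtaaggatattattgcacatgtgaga
The *Scn3a* window held 7 CpG dinucleotides at 43.3% GC and the *Scn2a* window 4 at 39.3%, against a median of 14.5 CpG and 60.5% GC over the 72 windows found for 63 of the 83 channel genes, and of 7 and 51.7% over 33469 rat windows. Neither held any of the letters searched for on both strands (TATAAA, TGACGTCA, TTCAGCACC and GGGCGG).

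Of the other genes in this run, *Scn1a*, which encodes a sodium channel of mature neurons, had signals of 5.74 and 35.0 on GFP+, 4.87 and 5.51 on GFP+/- and 305 on NT arrays. The NT array alone was high. The difference passed for GFP+/- cells (log2 difference -5.88, SE 1.11, adjusted p = 0.0332) and not for GFP+ cells (-4.43, SE 1.11, adjusted p = 0.0700), while the difference between the GFP+ arrays themselves was large. *Scn9a*, a sodium channel gene of peripheral and neuroendocrine neurons, had 30.9 and 57.5 on GFP+, 37.1 and 65.3 on GFP+/- and 241 on NT arrays. Its pattern was that of *Scn1a*, with log2 differences of -2.51 (adjusted p = 0.0679) and -2.29 (adjusted p = 0.0814) over NT cells that did not pass. The other *Scn9a* probe set had 49.0 and 58.3 on GFP+, 48.1 and 62.9 on GFP+/- and 73.0 on NT arrays, a far smaller gap to NT cells. *Scn7a*, whose product senses the sodium level in glial cells, had 67.9 and 146 on GFP+, 121 and 97.5 on GFP+/- and 76.1 on NT arrays. Its GFP+ arrays lay on either side of the others, and both GFP+/- arrays lay above the NT array.

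*Scn8a*, a sodium channel gene of axon initial segments and nodes, had 86.4 and 99.4 on GFP+, 51.2 and 53.8 on GFP+/- and 96.1 on NT arrays (log2 difference 0.82 between GFP+ and GFP+/- cells, adjusted p = 0.365). Its other probe sets went the other way, at -0.98 and -1.52, so that *Scn8a* had no settled direction. *Scn10a* and *Scn11a* encode channels of sensory neurons and *Scn4a* that of skeletal muscle. *Scn10a* had the largest log2 difference of the alpha subunits between GFP+ and GFP+/- cells (1.81, adjusted p = 0.420), from signals of 57.5 and 53.2 on GFP+, 6.78 and 36.7 on GFP+/- and 7.76 on NT arrays. *Scn4a* had 194 and 248 on GFP+, 192 and 225 on GFP+/- and 129.7 on NT arrays, with adjusted p of 0.218 and 0.260 over NT cells. Its other probe sets went the other way over NT cells, at -0.73 and -0.74 for GFP+ and -0.39 and -1.25 for GFP+/- cells. *Scn11a* had log2 differences of 0.37, 0.36 and -0.01 in the 3 comparisons. *Scn2b*, the only beta subunit gene on the array, was at 1.96 to 5.83 on all arrays, too dim for any comparison.

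**Figure D2:**
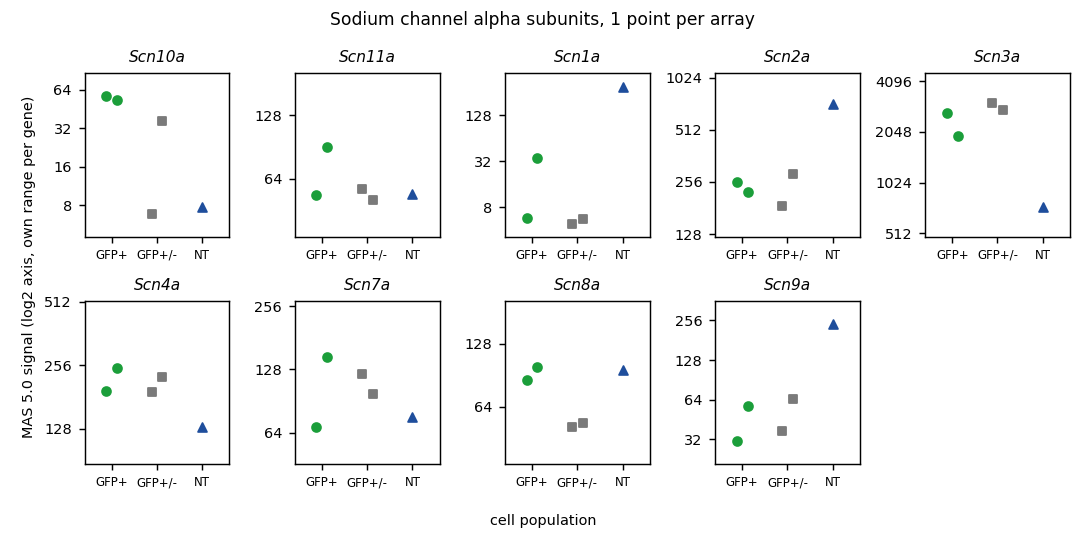
MAS 5.0 signal of the 9 sodium channel alpha subunit genes (1 panel each, log2 axis with its own range) on the GFP+, GFP+/- and NT arrays, with 1 point per array. *Scn3a* is lowest and *Scn2a*, *Scn1a* and *Scn9a* are highest on the NT array.

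Calcium channels showed the only channel gene past a test between sorted and unsorted cells. *Cacnb2* encodes a cytoplasmic beta subunit that brings the pore to the membrane. Its signal was 268 and 292 on GFP+, 131 and 103 on GFP+/- and 263 on NT arrays. Both GFP+ arrays and the NT array were high and both GFP+/- arrays were low. GFP+ cells exceeded GFP+/- cells by 1.27 on the log2 scale (SE 0.25, adjusted p = 0.160), which passed only when the brightest 41% were adjusted alone (adjusted p = 0.0290). The mean signal of *Cacnb2* was 280.1 in GFP+, 117 in GFP+/- and 263 in NT cells, so that it reached the limit of 175 through the populations in which it was high, and its call depends on that choice of probe sets. The log2 value of GFP+/- over NT cells was -1.18 (SE 0.31, adjusted p = 0.0728, and 0.0219 among the brightest 41%), and GFP+ cells differed from NT cells by 0.089 (adjusted p = 0.906). The other *Cacnb2* probe set had 124 and 120.3 on GFP+, 100.4 and 93.9 on GFP+/- and 117 on NT arrays, a log2 difference of 0.33 between GFP+ and GFP+/- cells (adjusted p = 0.661). The paper's list of transcripts enriched in GFP+ cells holds one likened to both *Cacnb2* and *Nsun6*. Its probe set could not be placed here.

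*Cacna2d1*, which encodes the extracellular alpha2delta subunit bound by gabapentin, was likewise lowest in GFP+/- cells, with 6095 and 3467 on GFP+, 2724 and 2462 on GFP+/- and 5528 on NT arrays. Both GFP+/- arrays lay below the other 3, and the GFP+ arrays differed from each other by more than the GFP+/- arrays did. The log2 difference was 0.83 for GFP+ over GFP+/- cells (SE 0.29, adjusted p = 0.305, and 0.120 among the brightest 41%) and -1.09 for GFP+/- over NT cells (SE 0.36, adjusted p = 0.127, and 0.0283 among the brightest 41%). *Cacnb4*, a further beta subunit gene, was dim with 69.2 and 50.0 on GFP+, 30.4 and 26.4 on GFP+/- and 65.8 on NT arrays (log2 difference 1.05 between GFP+ and GFP+/- cells, adjusted p = 0.362). *Cacnb1* and *Cacnb3*, also beta subunit genes, had log2 differences of 0.17 and -0.20 between GFP+ and GFP+/- cells. *Cacng1*, which encodes the gamma subunit of skeletal muscle, had -0.02. Of the 6 auxiliary subunit genes, 4 were thus above 0 in GFP+ over GFP+/- cells (median 0.50), beside 60.0% of all genes (median 0.11), and 5 lay below the NT array in both GFP+/- arrays, beside 42.2% of all genes.

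The windows of *Cacnb2* (chr17:82472965-82473264, plus strand) and *Cacna2d1* (chr4:20330098-20330397, minus strand) are shown in the same way, as the auxiliary subunit genes that were low in GFP+/- cells. *Cacnb2* has other windows, as has *Cacna2d1*, and the arrays do not tell which start was in use.
*Cacnb2*: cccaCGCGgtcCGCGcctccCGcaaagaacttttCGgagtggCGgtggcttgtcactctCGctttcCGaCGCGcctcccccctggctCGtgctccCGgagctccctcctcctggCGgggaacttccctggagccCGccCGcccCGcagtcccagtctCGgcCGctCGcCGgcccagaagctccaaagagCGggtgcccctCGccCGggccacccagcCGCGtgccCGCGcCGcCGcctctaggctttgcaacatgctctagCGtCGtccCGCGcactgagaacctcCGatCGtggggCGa
*Cacna2d1*: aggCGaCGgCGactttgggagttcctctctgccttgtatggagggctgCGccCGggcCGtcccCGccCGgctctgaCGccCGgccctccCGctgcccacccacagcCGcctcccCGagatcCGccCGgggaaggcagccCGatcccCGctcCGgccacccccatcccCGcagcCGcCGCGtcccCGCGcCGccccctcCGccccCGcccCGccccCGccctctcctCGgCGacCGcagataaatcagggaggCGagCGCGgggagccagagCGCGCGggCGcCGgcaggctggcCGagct
The windows shown were rich in CpG, with 37 at 71.7% GC for *Cacnb2* and 41 at 78.3% for *Cacna2d1*. The letters GGGCGG, a GC box that itself holds a CpG, occurred 2 times in the former and 7 times in the latter on either strand. The other *Cacnb2* window was not rich in CpG, with 6 at 48.7% GC, and held GGGCGG 0 times. The other *Cacna2d1* windows held 36 and 40 CpG at 73.0% and 75.7% GC, and GGGCGG 3 times each. Over all channel genes, GGGCGG was found in 34 of the 72 windows (47.2%), against 33.1% of all windows. The TATA box letters TATAAA were in 5 (6.94%; 14.2% of all windows), in *Cacna1s*, *Clcn1*, *Clcn7*, *Kcnj1* and *Kcnj13*. The cAMP response element TGACGTCA was in 1 (1.39%; 1.83% of all windows), that of *Clcn3*, and TTCAGCACC, the left part of the motif of the neuronal repressor REST, in 1 (1.39%; 0.356% of all windows), that of *Kcnh6*.

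Among the 8 pore-forming alpha1 subunits, *Cacna1h* moved against NT cells. It encodes a T-type channel, which opens at low voltage and supports burst firing. Its signal was 164 and 242 on GFP+, 208 and 212 on GFP+/- and 56.4 on NT arrays. The mean over all arrays was 177, so that it reached the limit of 175 for bright probe sets through the transfected populations. Its place among the bright genes depends on that limit, whereas the adjusted p given here is over all probe sets. The 4 arrays of transfected cells overlapped and all lay above the NT array, with log2 differences of 1.82 for GFP+ (SE 0.36, adjusted p = 0.0409) and 1.90 for GFP+/- cells (SE 0.36, adjusted p = 0.0339). Without any 1 of the GFP+ and GFP+/- arrays, adjusted p was 0.0899 to 0.119 for GFP+ and 0.0530 to 0.166 for GFP+/- cells. *Cacna1g*, the gene of another T-type channel, did not share this pattern, with 417 and 248 on GFP+, 287 and 377 on GFP+/- and 255 on NT arrays.

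*Cacna1b* encodes the N-type channel of nerve terminals. It had 593 and 716 on GFP+, 417 and 442 on GFP+/- and 726 on NT arrays, so that GFP+/- cells were lowest. The log2 difference was 0.60 for GFP+ over GFP+/- cells (SE 0.19, adjusted p = 0.269) and -0.76 for GFP+/- over NT cells (SE 0.23, adjusted p = 0.104, and 0.0494 among the brightest 41%). Its other probe set had 289 and 265 on GFP+, 215 and 323 on GFP+/- and 121 on NT arrays and thus lay lowest in NT cells, the opposite order. It passed among the brightest 41% as higher in GFP+ (log2 difference 1.199, adjusted p = 0.0230) and in GFP+/- cells (1.13, adjusted p = 0.0285) over NT cells, so that the direction of *Cacna1b* against NT cells was not settled. *Cacna1c*, the gene of an L-type channel, had 429.5 and 282 on GFP+, 198 and 306 on GFP+/- and 679 on NT arrays. The NT array was highest, with a log2 difference of -1.46 for GFP+/- cells (SE 0.39, adjusted p = 0.0780, and 0.0100 among the brightest 41%) and of -0.96 for GFP+ cells (SE 0.39, adjusted p = 0.205). The other, dim *Cacna1c* probe sets disagreed over NT cells, with -1.20 and 0.59 for GFP+ and -2.07 and 0.32 for GFP+/- cells.

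*Cacna1a*, which encodes the P/Q-type channel of nerve terminals, had 469 and 558 on GFP+, 626 and 889.8 on GFP+/- and 644 on NT arrays. It was the alpha1 subunit gene with the lowest value in GFP+ over GFP+/- cells (log2 difference -0.55, SE 0.23, adjusted p = 0.372), and its 3 dim other probe sets had positive values. *Cacna1d*, of a second L-type channel, *Cacna1e*, of the R-type channel, and *Cacna1s*, of the skeletal muscle channel, had log2 differences of -0.11, -0.03 and -0.25 between GFP+ and GFP+/- cells. *Cacna1e* was nearly the same on every array, at 75.3 to 80.6.

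**Figure D3:**
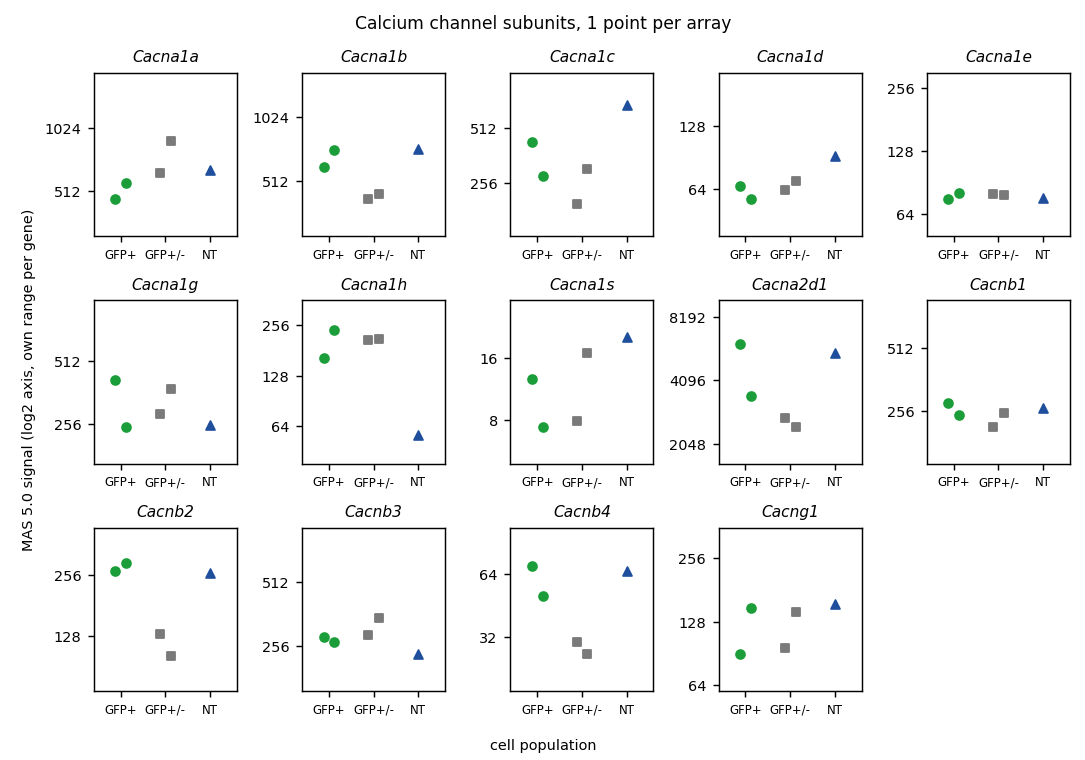
MAS 5.0 signal of the 14 calcium channel genes (1 panel each, log2 axis with its own range) on the GFP+, GFP+/- and NT arrays, with 1 point per array. Both GFP+/- arrays lie below all others in *Cacnb2*, *Cacna2d1*, *Cacnb4* and *Cacna1b*, and the NT array lies below all others in *Cacna1h*.

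Voltage-gated potassium channels made up the largest group, with 27 alpha subunit genes, of which 6 were among the brightest 41%. In GFP+ over GFP+/- cells 23 of the 27 had a log2 difference above 0, with a median of 0.35 and a range of -0.80 to 1.53, and 0 passed limma's test over all probe sets or among the bright ones. Of all genes, 60.0% were above 0, with a median of 0.11 that fell to about 0 under the other scalings. The count and median of the 27 were not taken under those scalings. There the median of all 83 channel genes was 0.022 (quantile) and 0.027 (equal medians). Both GFP+ arrays lay above both GFP+/- arrays in 12 of the 27, beside 30.2% of all genes, and below in 1, *Kcnh6*, beside 16.3%. Over NT cells, 15 of 27 were above 0 in GFP+ and 13 in GFP+/- cells, beside 54.3% and 47.9% of all genes.

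*Kcnd3*, which encodes a channel of the fast-inactivating A-type current, was the one that passed a test, against NT cells and among the bright probe sets only. It had 1159 and 809 on GFP+, 565 and 707 on GFP+/- and 509 on NT arrays. The GFP+ arrays were the highest, with a log2 difference of 0.93 over NT cells (SE 0.30, adjusted p = 0.121, and 0.0372 among the brightest 41%) and of 0.62 over GFP+/- cells (SE 0.24, adjusted p = 0.345). Its 2 dimmer probe sets also had higher values in GFP+ than in GFP+/- cells (log2 differences 1.01 and 1.12, adjusted p = 0.420 and 0.616). *Kcnd2*, the other A-type gene of this subfamily, had 291 and 442 on GFP+, 352 and 334 on GFP+/- and 405 on NT arrays. The GFP+ arrays of *Kcnd2* lay on either side of the others, and both GFP+/- arrays lay below the NT array. Its dimmer probe set had 146 and 79.4 on GFP+, 98.6 and 73.2 on GFP+/- and 18.3 on NT arrays, and it was the 1 of the 48 other probe sets to pass over all probe sets in any comparison (2.55 for GFP+ over NT cells, adjusted p = 0.0491).

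*Kcna1* encodes a delayed rectifier of axons. It had 191 and 110.4 on GFP+, 69.6 and 81.0 on GFP+/- and 33.9 on NT arrays, and its other probe set had 195 and 85.5 on GFP+, 44.1 and 67.7 on GFP+/- and 38.3 on NT arrays. Both probe sets had the same order of populations, with log2 differences of 0.95 (adjusted p = 0.370) and 1.24 (adjusted p = 0.370) between GFP+ and GFP+/- cells and of 2.10 (adjusted p = 0.0601) and 1.76 (adjusted p = 0.165) over NT cells. *Kcna5* of the same subfamily had 131 and 162 on GFP+, 68.9 and 86.2 on GFP+/- and 48.8 on NT arrays, again with GFP+ highest and NT lowest (1.58 for GFP+ over NT cells, adjusted p = 0.0761). *Kcna6* had the lowest value of all alpha subunits in GFP+ over GFP+/- cells (-0.80, adjusted p = 0.613), and its other probe set had 0.71.

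*Kcnc2*, of the fast delayed rectifiers that allow rapid firing, had 47.7 and 59.3 on GFP+, 37.7 and 39.0 on GFP+/- and 152 on NT arrays. By this probe set the NT array alone was high (log2 difference -1.98 for GFP+/- over NT cells, adjusted p = 0.0577). Over its 4 probe sets this difference ran from -1.98 to 0.83, so that *Kcnc2* had no settled direction. *Kcnc1* of the same subfamily had 808 and 549.6 on GFP+, 566 and 593 on GFP+/- and 566 on NT arrays, so that its populations overlapped. Of the 8 genes of the ether-à-go-go family, *Kcnh1* was more than 2-fold higher in GFP+ cells, with 152 and 99.8, against 59.4 and 58.0 in GFP+/- and 109 in NT cells (log2 difference 1.07, adjusted p = 0.288). *Kcnh2*, whose product carries a slow repolarizing current, had 221 and 274 on GFP+, 197 and 222 on GFP+/- and 348 on NT arrays, with the NT array highest and adjusted p of 0.361 and 0.180. *Kcnh3* had 623 and 576 on GFP+, 547 and 407 on GFP+/- and 457 on NT arrays, and *Kcnq3*, of the current that muscarinic receptors suppress, had 231 and 289 on GFP+, 206 and 187 on GFP+/- and 182 on NT arrays. Both were above both GFP+/- arrays on the GFP+ arrays, by 0.35 and 0.40 (adjusted p = 0.542 and 0.528).

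*Kcns1*, a silent subunit gene whose product modifies other potassium channels, had the largest value of the alpha subunits in GFP+ over GFP+/- cells. Its signals were 31.9 and 19.1 on GFP+, 7.10 and 10.3 on GFP+/- and 7.68 on NT arrays, a log2 difference of 1.53 (SE 0.54, adjusted p = 0.309). *Kcnb2*, a slow delayed rectifier gene, had 58.0 and 51.3 on GFP+, 25.4 and 25.2 on GFP+/- and 41.3 on NT arrays (log2 difference 1.11, adjusted p = 0.338). Among the 4 auxiliary subunit genes, *Kcnab2*, of a cytoplasmic beta subunit, had 343 and 308 on GFP+, 249 and 325 on GFP+/- and 219 on NT arrays. Its GFP+ and GFP+/- arrays overlapped, and the NT array lay below them. The other auxiliary subunit genes ranged from -0.75 for *Kcnab3* to 1.09 for *Kcne1* in GFP+ over GFP+/- cells. All 4 were above 0 in GFP+ over NT cells (median 0.51), beside 54.3% of all genes (median 0.086). The other probe sets of *Kcnab2* and *Kcne1* had -0.047 and -0.83 for GFP+ over NT cells.

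Inward rectifiers, which hold the resting potential, were mostly dim: 1 of 15, the renal channel gene *Kcnj1*, was among the brightest 41%. *Kcnj1* had 168 and 84.6 on GFP+, 254 and 219 on GFP+/- and 169.8 on NT arrays. Both GFP+ arrays lay below both GFP+/- arrays (log2 difference -0.98, SE 0.38, adjusted p = 0.345). The remaining *Kcnj1* probe sets gave -0.62 and 2.17, without a shared direction. The glial channel gene *Kcnj10* was likewise lower in both GFP+ arrays, with 45.9 and 18.7 on GFP+, 65.8 and 54.7 on GFP+/- and 29.5 on NT arrays (-1.04, adjusted p = 0.499). *Kcnj12*, of a strong rectifier, was at the other end of the 83 genes, with 22.4 and 52.9 on GFP+, 7.52 and 12.3 on GFP+/- and 37.7 on NT arrays (1.84, SE 0.62, adjusted p = 0.291). The G protein-gated channel genes *Kcnj3*, *Kcnj5*, *Kcnj6* and *Kcnj9* had 0.03, 0.43, -0.01 and -0.26, and the pore genes of ATP-sensitive channels, *Kcnj11* and *Kcnj8*, had 0.04 and -0.28. The median of the 15 genes was -0.0075 in GFP+ over GFP+/- cells, with 7 above 0, beside 60.0% of all genes (median 0.11).

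The remaining potassium channel genes also gave no call. The tandem-pore channel gene *Kcnk1* had 66.4 and 98.9 on GFP+, 59.5 and 18.7 on GFP+/- and 122 on NT arrays (log2 difference 1.28 for GFP+ over GFP+/- cells, adjusted p = 0.447), with a wide gap between the GFP+/- arrays. *Kcnk3* and *Kcnk5*, which encode acid- or alkali-sensitive leak channels, had 0.29 and -0.37. *Kcnmb1*, the gene of the beta subunit of the large-conductance calcium-activated channel, known from smooth muscle, had 337 and 458 on GFP+, 264 and 259 on GFP+/- and 429 on NT arrays. GFP+/- cells were lowest (0.59 for GFP+ over GFP+/- cells, SE 0.23, adjusted p = 0.341). The other *Kcnmb1* probe set was dim and nearly flat, at 21.1 to 26.1 on all arrays (0.074 for GFP+ over GFP+/- cells, adjusted p = 0.963). The pore gene of the large-conductance channel, *Kcnma1*, was dim, at 15.7 to 35.7. *Kcnn3* had 5.17 and 5.21 on GFP+, 16.03 and 4.79 on GFP+/- and 3.58 on NT arrays, so that a single array set its 2-fold difference. *Kcnt1*, of a sodium-activated channel, had 12.7 and 10.3 on GFP+, 6.37 and 5.05 on GFP+/- and 6.12 on NT arrays (1.01, adjusted p = 0.411), and *Kcnn1*, of a small-conductance channel, had 0.11.

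In the *Clcn* family, *Clcn3*, which encodes a chloride-proton exchanger of endosomes and synaptic vesicles, had 1777 and 1293 on GFP+, 1278 and 858 on GFP+/- and 1542 on NT arrays. Both GFP+ arrays lay above both GFP+/- arrays, by 0.53 on the log2 scale (SE 0.27, adjusted p = 0.450). All 5 *Clcn* genes had a log2 difference above 0 in GFP+ over GFP+/- cells (median 0.42), beside 60.0% of all genes (median 0.11). That of the exchanger gene *Clcn4* (0.081) turned below 0 under quantile normalization and equal medians. *Clcn5*, of an endosomal exchanger, had 20.2 and 18.1 on GFP+, 11.3 and 8.04 on GFP+/- and 39.2 on NT arrays. The muscle channel gene *Clcn1* and the lysosomal exchanger gene *Clcn7* were at 22.9 or below on all arrays.

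**Figure D4:**
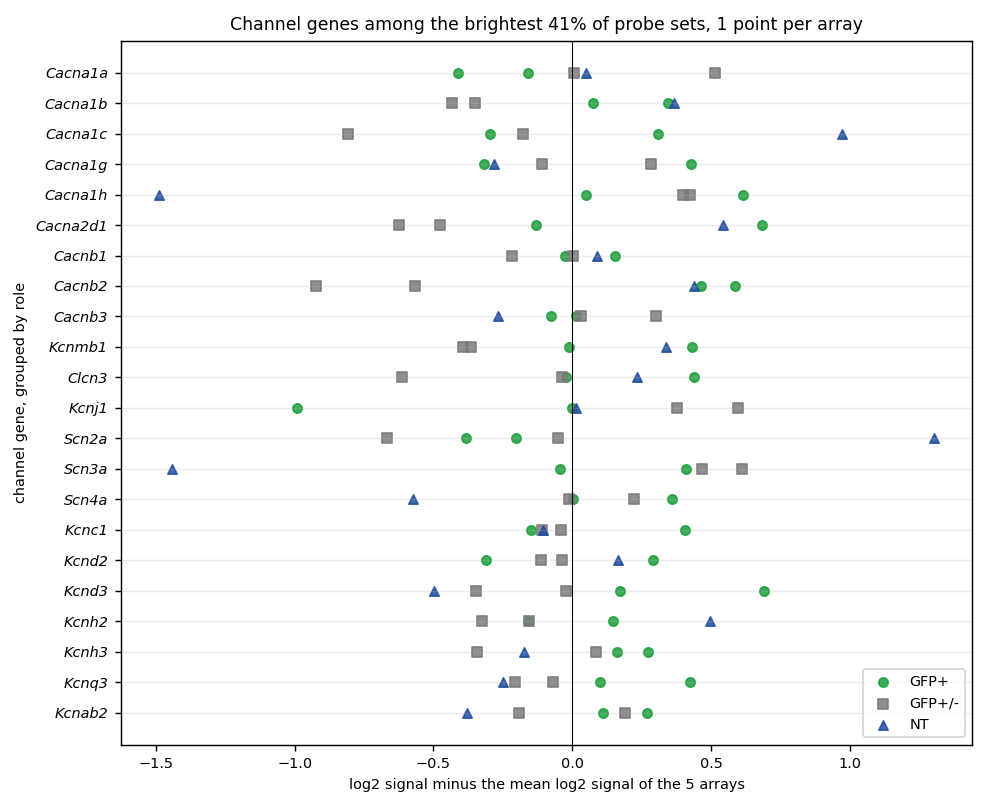
Log2 signal of the 22 channel genes among the brightest 41% of probe sets, as the distance from the mean of the 5 arrays, with 1 point per array. *Cacna1h* and *Scn3a* are lowest and *Scn2a* and *Cacna1c* highest on the NT array (blue triangles), and *Cacnb2*, *Cacna2d1* and *Cacna1b* are lowest on the GFP+/- arrays (grey squares).

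Probe sets of one gene were compared where there were several. All had the same sign in 21 of 34 genes in GFP+ over GFP+/- cells, in 16 in GFP+ over NT cells and in 15 in GFP+/- over NT cells. *Scn3a*, *Kcna1*, *Kcnd3* and *Cacnb2* were among those with 1 direction between GFP+ and GFP+/- cells, and *Cacna1a*, *Scn8a* and *Kcnj1* were not.

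Genes that work beside these channels were counted from lists of channel partners, calcium release channels, TRP and cyclic nucleotide-gated channels, acid-sensing and epithelial sodium channels, ion pumps and exchangers, and other chloride transport. Of the 49 on the array, 0 passed in GFP+ over GFP+/- cells. Over NT cells, the calls came from 2 lists. Of 15 pump and exchanger genes, *Slc8a1*, of the sodium-calcium exchanger, rose in GFP+ cells, with 717 and 633 on GFP+, 316 and 478 on GFP+/- and 233 on NT arrays (log2 difference 1.53, adjusted p = 0.0426). The sodium pump subunit gene *Atp1b3* fell, with 1150 and 1356 on GFP+, 1359 and 1342 on GFP+/- and 3742 on NT arrays (-1.58, adjusted p = 0.0158, for GFP+ and -1.47, adjusted p = 0.0181, for GFP+/- cells), and *Atp1b1* fell in GFP+/- cells (-1.55, adjusted p = 0.0278).

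Of 9 genes of other chloride transport, 4 cation-chloride cotransporter genes passed in GFP+ over NT cells, 2 in each direction, where 4.31% of all genes rose and 4.1% fell. *Slc12a5*, which encodes the cotransporter that lowers chloride in mature neurons, had 207 and 391 on GFP+, 141 and 142 on GFP+/- and 1091 on NT arrays (-1.94, adjusted p = 0.0468, for GFP+ and -2.95, adjusted p = 0.0183, for GFP+/- cells). *Slc12a2*, of the cotransporter that loads chloride, fell too (-1.82, adjusted p = 0.0403, and -2.26, adjusted p = 0.0239). *Slc12a4* and *Slc12a7*, of cotransporters that act in cell volume control, rose in GFP+ cells (1.28 and 1.63, adjusted p = 0.0419 and 0.0158), and *Slc12a7* also in GFP+/- cells (1.39, adjusted p = 0.0218). The NT array stood apart from all 4 others in each of these 4 genes. Without the intensity trend 0 of the 11 calls of pump, exchanger and cotransporter genes were left (adjusted p from 0.0830 to 0.134).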

How the data were processed

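RNA of the 3 populations had been hybridized to 5 Affymetrix rat arrays. The authors summarised each probe set with MAS 5.0 as a signal, a linear intensity, scaled by 1 factor per array; with the top and bottom 2% set aside, every deposited array averages 501, whereas the methods state another target. Detection calls were not used here. The table lists 8799 probe sets. Without 59 controls, 8740 were analysed, of which the platform annotation gave 7006 a single gene, 308 several and 1426 none; all 83 channel symbols were found in RefSeq (GRCr8), which also gave the promoter windows. Signals under 1 were set to 1, and log2 values were tested with limma 3.58.1 in R 4.3.3, in 1 fit of all 5 arrays with a mean per population and an intensity trend. Benjamini-Hochberg adjustment ran over all 8740 (threshold 0.05), and separately over the 3583 brightest (41%). The ratio of averaged signals (2-fold limit) is the measure of the study's methods. The fit was tested on simulated data. Python 3.11.15, numpy 2.4.6, pandas 2.3.3 and matplotlib 3.10.9 made tables and plots. The number of arrays limits the precision.

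The members and lists were chosen with earlier results of these data known. Named were, in each role, the brightest gene and those with the largest and smallest log2 difference of GFP+ over GFP+/- cells, the channel genes the study names, all genes past a threshold, and the extreme bright genes over NT cells (31 in all). Further genes were named after their values were seen. Alternatives tried were quantile normalization, equal medians, 16 added to each signal, the brightest 41%, no trend, a fit without the NT array, replicate number as a block, each GFP+ and GFP+/- array left out, and averaging all probe sets of a gene.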

Additional observations from a re-analysis of the deposited data

How the results depend on the processing

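With limma between GFP+ and GFP+/- cells, 0 channel genes passed under every alternative except the brightest 41%, where 1 did. In GFP+ over NT cells 3 passed, and 0 without a trend. In GFP+/- over NT cells 4 passed, 7 among the brightest 41% and 0 without a trend. Without a trend, 1 probe set of the whole array rose and 1 fell in each comparison with NT cells. The fits with 1 array of GFP+ or GFP+/- cells left out have 1 residual degree of freedom in place of 2. Calls against NT cells were then fewer among channel genes and over the whole array alike. This loss is thus not particular to channel genes. *Scn1a* passed in GFP+ over NT cells only with 16 added (adjusted p = 0.0238), and *Clcn5* in GFP+/- over NT cells only with 16 added (adjusted p = 0.0477).

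Counts past 2-fold moved more. In GFP+ over GFP+/- cells the 13 higher genes became 6 (quantile), 6 (equal medians), 2 (16 added) and 1 (brightest 41%), beside 5.00%, 5.32%, 3.32% and 2.36% of all genes under the same settings, and the 1 lower gene became 5, 4, 0 and 0 (5.57%, 5.43%, 1.82% and 1.97% of all genes), and 2 to 5 with 1 array left out. Without GFP+ replicate 2 it was 5. In GFP+ over NT cells the 10 higher genes became 2 among the brightest 41% (11.9% of all bright genes), and the 7 lower ones 4 with 16 added (8.34% of all genes), 1 among the brightest 41% (10.45% of all bright genes) and 10 to 12 with 1 GFP+ array left out (12 without GFP+ replicate 1). In GFP+/- over NT cells the 7 higher genes became 2 with 16 added (8.15% of all genes) and 2 among the brightest 41% (11.5% of all bright genes), and the 12 lower ones 4 among the brightest 41% (12.04% of all bright genes). The brightest 41% hold 22 of the 83 genes. With 1 array left out the share of all genes was not counted, so those counts cannot be set against it. The median of the 83 genes in GFP+/- over NT cells was -0.15, and 0.064 after quantile normalization. The causes of these shifts were not tested beyond the smaller number of genes and arrays. Of the channel genes past a test over all probe sets or among the brightest 41%, only *Cacna1b* changed its sign: in GFP+/- over NT cells it was -0.76, and 0.18 with its probe sets averaged (adjusted p = 0.726).

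The replicate numbers of the labels marked no shared source, and same-numbered GFP+ and GFP+/- arrays deviated with r = 0.063 over all probe sets and 0.197 over the brightest 41% (2 pairs). With the replicate number as a block, 0 channel genes passed between GFP+ and GFP+/- cells.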
